A study of Mus musculus with 4 samples.

Results

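Translation factors and aminoacyl-tRNA synthetases make up the machinery that charges transfer RNAs and carries a ribosome through initiation and elongation. They were read here in 4 RNA sequencing libraries of mouse macrophages, as all genes whose symbols in the deposited tables begin with Eif1 to Eif6, Eef1 or Eef2, together with the cytosolic and mitochondrial synthetases. The eIF2 alpha kinases and the Y-linked copy Eif2s3y were left out by this definition. It used no measured value but was chosen with earlier results of these data known. It gave 93 genes of the 17008 with a read in any library, namely 12 start-site and ternary-complex factors, 5 subunits of eIF2B, 14 of eIF3, 11 of the eIF4 group, 4 eIF4E-binding proteins, 8 elongation factors or regulators, 3 genes of eIF5A and eIF6, 20 cytosolic synthetases and 16 mitochondrial ones.

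All 4 libraries came from macrophages of C57BL/6J mice, 6 to 8 weeks old. The T-ALL libraries are macrophages taken from spleen and from bone marrow on day 21 after unirradiated mice received GFP-positive T-cell acute lymphoblastic leukaemia cells from leukaemic donors. The normal libraries are macrophages of the same organs at day 0. Each group is 1 library, so nothing here measures the spread between animals. The sources used here give neither the sort's markers nor the number or sex of the mice behind a library.

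Initiation begins when eIF2, loaded with GTP and the initiator transfer RNA, joins eIF1, eIF1A and eIF3 on the small ribosomal subunit, while eIF4E, eIF4G and eIF4A bring the capped messenger RNA. eIF2B recharges eIF2 with GTP, and phosphorylation of eIF2 alpha in stressed cells blocks that step and lets ATF4 be translated. In elongation eEF1A delivers aminoacyl-tRNA, eEF2 moves the ribosome along and eIF5A, which carries the modified lysine hypusine, helps it past difficult peptide bonds. Macrophages raise protein synthesis when they proliferate or are activated, and many of these genes are known targets of Myc and, for the synthetases, of ATF4.

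The libraries held 9.0e+06 to 9.8e+06 reads each. Levels are read counts relative to the scaled library total (CPM), on which 1 read was worth 0.101 to 0.112 CPM. The 9 macrophage genes checked (among them Csf1r, Cd68 and Lyz2) had reads in every library. They summed to 2800 and 5450 CPM in T-ALL and normal spleen and to 8140 and 3550 CPM in T-ALL and normal bone marrow. The sums do not show how single genes of the list went. From normal bone marrow to normal spleen 7 of the 9 were 2-fold higher, while Itgam and Lyz2 were 2-fold lower. Between the T-ALL libraries Mertk was 2-fold higher in spleen, Fcgr1, Itgam and Lyz2 were 2-fold lower, and the median log2 difference was −0.15. Genes of other cells were present too. Summed over 8 mature neutrophil genes, levels were 145 and 507 CPM in T-ALL and normal spleen but 27300 and 35000 CPM in T-ALL and normal bone marrow, and 9 T cell genes summed to 2030, 676, 439 and 122 CPM in the same order of libraries. Of the defining genes checked for macrophages, T cells, neutrophils, B cells, plasma cells, dendritic cells and red cells, none was at 0 in any library. Among 10 thymocyte or T-ALL genes checked, 1 was at 0, in normal spleen alone. Reads of Xist, which is transcribed from the inactive X of females, came to 416 CPM in T-ALL spleen, 849 CPM in normal spleen, 0.644 CPM in bone marrow of T-ALL mice and 861 CPM in normal bone marrow. In a bulk library, fewer cells of a type and less RNA per cell cannot be told apart.

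Nearly the whole set was well expressed. Of the 93 genes, 92 had a read in each of the T-ALL libraries and in normal bone marrow, all 93 had one in normal spleen, and 85 reached 10 CPM in every library. Those that never reached 10 CPM were Eef1a2, the eEF1A form of muscle and neurons, with 0, 1, 0 and 0 reads, and Eif3j2, with 17, 13, 9 and 9 reads, both in T-ALL spleen, normal spleen, T-ALL bone marrow and normal bone marrow. Together the 93 genes took 4.011% of the reads of T-ALL spleen (95% Wilson interval 3.998 to 4.024), 2.538% of normal spleen (2.528 to 2.548), 2.705% of T-ALL bone marrow (2.695 to 2.716) and 2.916% of normal bone marrow (2.905 to 2.926). T-ALL spleen thus gave this machinery the largest share of its reads among the 4 libraries, and normal spleen the smallest. Without Eef1a1 and Eef2, the most abundant of the set, the shares were 2.11% and 1.31% in T-ALL and normal spleen and 1.49% and 1.73% in T-ALL and normal bone marrow, so the order of the 4 libraries stayed as it was.

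In the spleen, 23 of the 91 members measured (25.3%) were at least 2-fold higher in T-ALL than in normal macrophages and 0 were 2-fold lower. A gene was counted when log2(CPM + 1) differed by at least 1 and the higher library had 10 CPM or more. By the same rule 10.3% of all 9774 genes measured were higher and 11.0% lower. The median log2 difference was 0.68 over the members and −0.08 over all genes, and 81 of the 91 members were above 0, against 46.0% of all genes. The 23 were Eif5a, Eif2b3, Mars, Gars, Eif1ad, Eif1ax, Kars, Eprs, Eif3b, Rars, Eif4e, Dars, Tars, Eif1a, Sars2, Eif2s2, Eif4a1, Eif3j1, Eef1e1, Eif2s1, Yars, Cars and Hars, with CPM ratios from 2.02 to 2.97. The 2-fold limit runs through a dense stretch of values: 8 further members, Eef2 and Eif3i among them, were between 1.8- and 2-fold higher, Eif3i lying just outside at 0.99 and Hars just inside at 1.00 on the log2 scale.

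**Figure D1:**
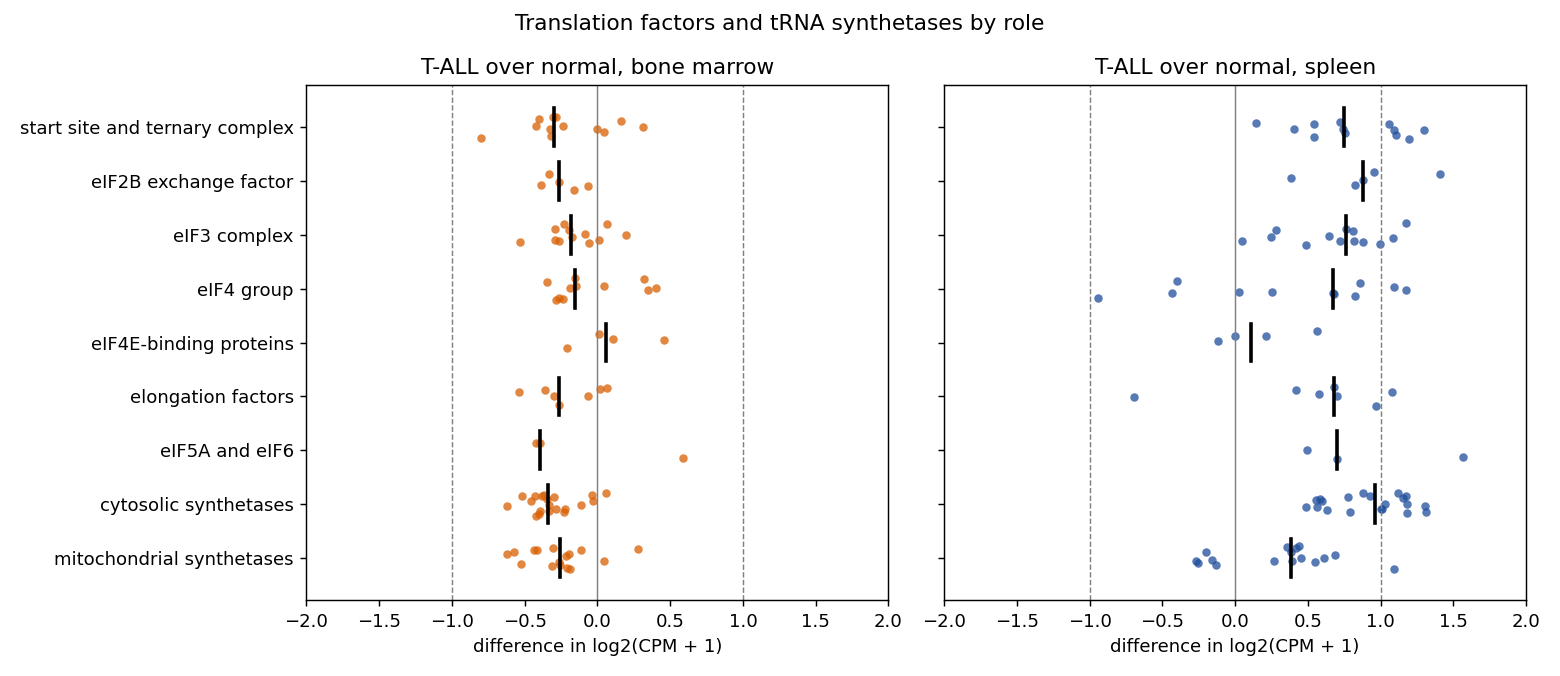
Differences in log2(CPM + 1) between T-ALL and normal macrophages for every measured member, by role, in spleen and in bone marrow; each point is 1 gene, black bars are medians, and dashed lines mark 2-fold. In spleen 81 of 91 members are above 0 and 23 lie right of the upper dashed line; in bone marrow 19 of 90 are above 0 and none reaches either line.

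Bone marrow gave a different picture of the same genes. There, 0 of 90 members were 2-fold higher in T-ALL macrophages and 0 were 2-fold lower, where the rule took 8.01% of all 9716 genes as higher and 1.03% as lower. The median log2 difference was −0.26 over the members and −0.04 over all genes, and 71 of the 90 members were below 0. Most of these shifts were small but beyond counting error, since the counting interval of the T-ALL to normal ratio excluded 1 for 57 members on the lower side and for 10 on the higher side. In spleen it did so for 75 on the higher side and 4 on the lower. Such intervals cover counting error only.

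Members whose direction differed between the organs were thus the common case. Of the 90 measured in both organs, 67 (74.4%) were higher in T-ALL spleen and lower in T-ALL bone marrow by sign, a pattern shared by 34.8% of the 9178 genes measured in both. A further 13 were higher in both organs, 4 lower in both and 6 lower in spleen and higher in bone marrow, while 0 passed the 2-fold rule in opposite directions. Over the 4 libraries, 70 of these 90 members (77.8%) were highest in T-ALL spleen and 61 (67.8%) were lowest in normal spleen, beside 26.2% and 31.9% of the 10312 genes with 10 CPM in any library. Across genes, the bone marrow and spleen differences had a Pearson r of −0.43 and a Spearman rho of −0.41 over the 90 members, and −0.30 and −0.49 over all genes. These comparisons have no library in common, but genes are not independent replicates and each difference rests on 1 pair of libraries.

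**Figure D2:**
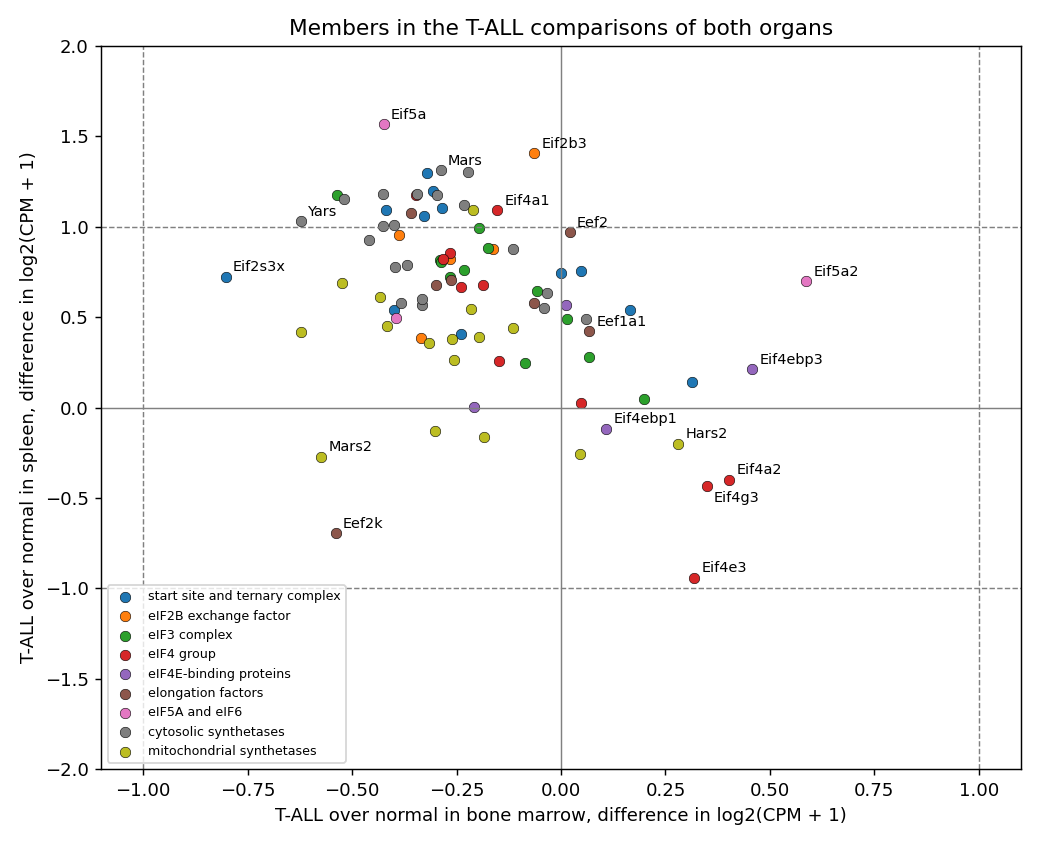
Difference in log2(CPM + 1) between T-ALL and normal macrophages in bone marrow (horizontal) and in spleen (vertical); each point is 1 of the 90 members measured in both, coloured by role, and dashed lines mark 2-fold. Most points, 67 of 90, are in the upper left part, and Eif4e3, Eif4a2 and Eif4g3 are among the 6 in the lower right.

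Markers of dividing cells and of other cell types differed between the libraries as well, some in the direction of the set and some against it. The 11 cell cycle genes checked, Mki67, Top2a and Cdk1 among them, were all 2-fold higher in T-ALL spleen, with summed levels of 3180 CPM in T-ALL spleen, 820 CPM in normal spleen, 2700 CPM in bone marrow of T-ALL mice and 4190 CPM in normal bone marrow. Their median log2 difference was 2.02 in spleen and −0.69 in bone marrow. Of the 9 T cell genes, 8 were 2-fold higher in T-ALL spleen and 9 in T-ALL bone marrow, and 6 of 6 neutrophil precursor genes were 2-fold lower in T-ALL bone marrow. Among thymocyte or T-ALL genes, 4 of 7 measured were 2-fold higher and 1 was 2-fold lower in T-ALL spleen. In T-ALL bone marrow 4 of 8 measured were 2-fold higher and 0 lower. Of the 9 macrophage genes, 5 were 2-fold lower in T-ALL spleen and 8 were 2-fold higher in T-ALL bone marrow, against the direction of most members in both organs. In T-ALL spleen 5 of 5 dendritic cell genes, 5 of 5 measured mature neutrophil genes and 3 of 5 B cell genes were 2-fold lower. In T-ALL bone marrow 4 of 6 red cell genes and 2 of 8 mature neutrophil genes were 2-fold higher and 0 lower. So were 2 of 5 plasma cell genes, 1 of 5 B cell genes and 1 of 2 measured dendritic cell genes, with 0 lower. The neutrophil precursor genes summed to 3700 and 15000 CPM in T-ALL and normal bone marrow. The part of these in the results was not tested.

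**Figure D3:**
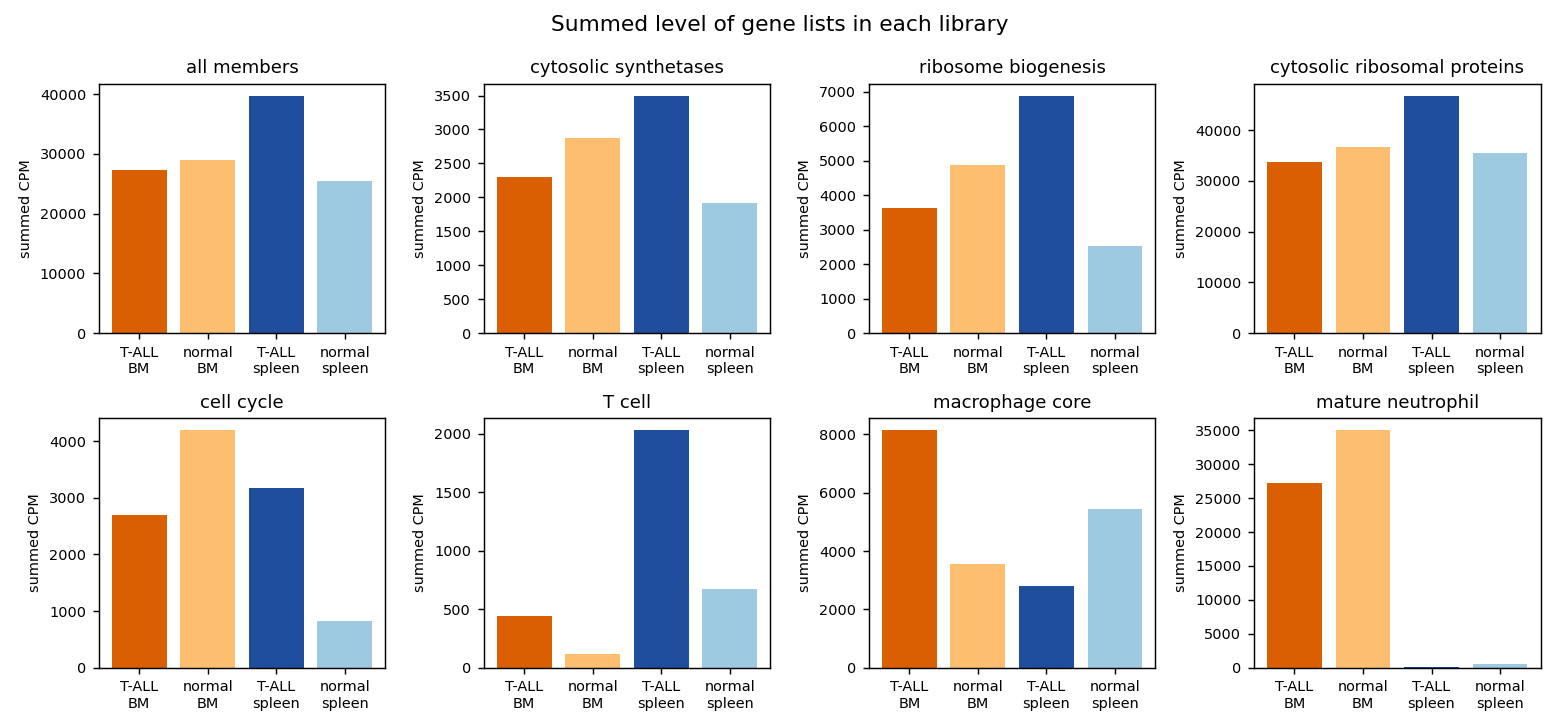
Summed CPM of 8 gene lists, from all members to mature neutrophil genes, with 1 bar for each of the 4 libraries (BM, bone marrow) and each list on its own linear axis from 0. Cell cycle genes are lowest in normal spleen, at 820 CPM, the same library in which the 93 members are lowest, at 25500 CPM against 39800 CPM in T-ALL spleen. The highest library differs: normal bone marrow for cell cycle genes, at 4190 CPM, and T-ALL spleen for the members. The part of the cell cycle in the members' levels was not tested.

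The factors that set up the start codon held 5 of the 23 members higher in T-ALL spleen. The alpha subunit of eIF2, Eif2s1, which carries the serine phosphorylated under stress, was at 173 CPM in T-ALL spleen and 82.6 CPM in normal spleen, and at 97.2 CPM in bone marrow of T-ALL mice and 122 CPM in normal bone marrow. Its CPM ratio in spleen was 2.10-fold (1.92 to 2.29), where the values after the ratio are its exact binomial 95% counting interval, as in all later ratios. Eif2s2, the beta subunit, had 221 and 103 CPM in T-ALL and normal spleen and 122 and 163 CPM in T-ALL and normal bone marrow, a ratio of 2.14-fold (1.98 to 2.32) in spleen. For both subunits T-ALL spleen was the highest library and normal spleen the lowest. For genes picked by the 2-fold rule in spleen, T-ALL spleen above normal spleen is built in. Eif1a and Eif1ax, near-identical copies of the scanning factor eIF1A between which reads may be misassigned, had spleen ratios of 2.17-fold (1.94 to 2.44) and 2.32-fold (2.06 to 2.62), at 108 and 49.6 CPM for Eif1a and 101 and 43.5 CPM for Eif1ax in T-ALL and normal spleen. In bone marrow they had 67.9 and 67.0 CPM in T-ALL and 83.0 and 83.0 CPM in normal macrophages, below normal in each case. Eif1ad, an eIF1A-domain protein, was at 97.7 and 39.2 CPM in T-ALL and normal spleen, a ratio of 2.49-fold (2.20 to 2.83), and at 63.2 and 79.2 CPM in T-ALL and normal bone marrow. Eif1, the factor that guards the choice of start codon, stood apart from this group, with 603 and 545 CPM in T-ALL and normal spleen and 468 and 377 CPM in T-ALL and normal bone marrow.

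The gamma subunit of eIF2 is encoded on both sex chromosomes, and its values need to be read with that in mind. Eif2s3x, the X-linked copy, had 417 CPM in T-ALL spleen and 252 CPM in normal spleen, a ratio of 1.65-fold (1.57 to 1.74), and 199 CPM in bone marrow of T-ALL mice and 348 CPM in normal bone marrow, where T-ALL was 1.75-fold lower (1.65 to 1.85). This was the lowest bone marrow difference of all members, at −0.80 on the log2 scale. Its Y-linked copy Eif2s3y had 37.6 and 0 CPM in T-ALL and normal spleen and 70.7 and 0.101 CPM in T-ALL and normal bone marrow, so that it had more than 1 read in the T-ALL libraries alone. Summed, the copies gave 454 and 252 CPM in T-ALL and normal spleen and 270.0 and 348 CPM in T-ALL and normal bone marrow. Eif2s3x alone was lowest in T-ALL bone marrow, while the sum was lowest in normal spleen. Eif1ax is X-linked too, and the part of the sex-linked difference between the libraries in the values of either gene was not tested. Y-linked Ddx3y had 57.6 and 0 CPM in T-ALL and normal spleen and 93.8 and 0 CPM in T-ALL and normal bone marrow. T-ALL spleen thus held reads of both Xist and Y-linked genes. In both organs the sex-linked reads differ together with the state, so their parts cannot be told apart for any member.

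Of the 5 subunits of eIF2B, the exchange factor that recharges eIF2, Eif2b3 (Gene ID 108067) was the one past 2-fold in T-ALL spleen. It had 31.9 and 11.4 CPM in T-ALL and normal spleen, a ratio of 2.80-fold (2.23 to 3.54) and the second-highest log2 difference of all members, beside 17.7 and 18.6 CPM in T-ALL and normal bone marrow. Eif2b1, the regulatory alpha subunit, had 50.3 and 25.5 CPM in T-ALL and normal spleen (1.97-fold, 1.68 to 2.32), just under the 2-fold limit. Eif2b2, the beta subunit, gave the smallest spleen ratio of the complex, 1.31-fold (1.16 to 1.49), at 64.3 and 49.0 CPM in T-ALL and normal spleen. All 5 subunits were highest in T-ALL spleen, with a median log2 difference of 0.88 there and −0.27 in bone marrow.

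The scaffold eIF3 gave 2 of its 13 measured genes as 2-fold higher in T-ALL spleen, Eif3b and Eif3j1. Eif3b, a core subunit, was at 508 CPM in T-ALL spleen and 224 CPM in normal spleen (2.26-fold, 2.15 to 2.39), with 306 and 443 CPM in T-ALL and normal bone marrow. Eif3j1 was low, at 11.8 and 5.03 CPM in T-ALL and normal spleen (2.34-fold, 1.64 to 3.40), and has a near-identical copy in Eif3j2. At the other end, the subunit Eif3f had 435 and 420.3 CPM in T-ALL and normal spleen, a ratio of 1.03-fold (0.989 to 1.08) whose interval includes 1. Subunits of 1 complex therefore differed in T-ALL spleen by up to the span between Eif3f and Eif3b, 0.05 to 1.17 on the log2 scale. The complex as a whole had a median log2 difference of 0.76 in spleen and −0.18 in bone marrow.

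Among the cap-binding and helicase genes, paralogues split in T-ALL spleen. Eif4e (Gene ID 13684), the cap-binding protein, had 168 CPM in T-ALL spleen and 74.1 CPM in normal spleen (2.27-fold, 2.07 to 2.49), and 101 and 128 CPM in T-ALL and normal bone marrow. Its relative Eif4e3, an atypical cap-binding protein, had 16.0 and 31.7 CPM in T-ALL and normal spleen, where T-ALL was 1.98-fold lower (1.61 to 2.43), and 53.8 and 42.9 CPM in T-ALL and normal bone marrow. In reads per kilobase relative to the library total (RPKM), the level of Eif4e was 9.16 times that of Eif4e3 in T-ALL spleen, 2.04 times in normal spleen, 1.63 times in T-ALL bone marrow and 2.61 times in normal bone marrow. The RNA helicase eIF4A showed the same kind of split. Eif4a1 was at 1157 and 543 CPM in T-ALL and normal spleen (2.13-fold, 2.06 to 2.20) and at 787 and 875 CPM in T-ALL and normal bone marrow. Eif4a2 was at 394 and 520.3 CPM in T-ALL and normal spleen, 1.32-fold lower (1.26 to 1.38) in T-ALL, and at 357 and 269.9 CPM in T-ALL and normal bone marrow, a ratio of 1.32-fold (1.26 to 1.39). The RPKM ratio of Eif4a1 to Eif4a2 was accordingly 4.91 in T-ALL spleen, 1.75 in normal spleen, 3.69 in T-ALL bone marrow and 5.42 in normal bone marrow, with normal spleen apart from the other 3 libraries. The scaffold Eif4g3 resembled Eif4a2, with 251 and 339 CPM in T-ALL and normal spleen and 306 and 239.8 CPM in T-ALL and normal bone marrow. Over the group, 8 of 11 genes were above 0 in spleen and the 3 below were Eif4a2, Eif4e3 and Eif4g3, none of which reached 2-fold.

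The proteins that bind eIF4E and hold translation back did not move with it past the 2-fold rule. Eif4ebp1, the target of mTORC1 that sequesters eIF4E, had 24.8 and 27.0 CPM in T-ALL and normal spleen, a ratio of 0.920-fold (0.764 to 1.11) whose interval includes 1, and 48.3 and 44.7 CPM in T-ALL and normal bone marrow. Eif4ebp2, a second binding protein, had 173 and 116 CPM in T-ALL and normal spleen (1.48-fold, 1.37 to 1.61) and 139 and 137 CPM in T-ALL and normal bone marrow. Per length, Eif4e reached 2.31 times the RPKM of Eif4ebp1 in T-ALL spleen, against 0.935 times in normal spleen, 0.710 times in T-ALL bone marrow and 0.976 times in normal bone marrow. Against Eif4ebp2 the RPKM ratios were 0.603 and 0.394 in T-ALL and normal spleen and 0.450 and 0.579 in T-ALL and normal bone marrow. Eif4ebp3 stayed between 7.30 and 13.0 CPM over the 4 libraries, and Eif4enif1, which carries eIF4E into the nucleus, between 103 and 122 CPM.

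Eif5a (Gene ID 276770) had the largest log2 difference of all members in T-ALL spleen. Its level was 1269 CPM in T-ALL spleen and 427 CPM in normal spleen (2.97-fold, 2.86 to 3.08), and 795 CPM in bone marrow of T-ALL mice and 1067 CPM in normal bone marrow, where T-ALL was 1.34-fold lower (1.30 to 1.38). Its processed pseudogenes could take or give reads, so the level is less certain than the counting interval says. Per length, the RPKM of Eif5a was 234 times that of Eif5a2 in T-ALL spleen, 132 times in normal spleen, 262 times in T-ALL bone marrow and 555 times in normal bone marrow. Eif5a2, this minor form, had 18.6 and 11.1 CPM in T-ALL and normal spleen (1.68-fold, 1.31 to 2.18) and 10.4 and 6.59 CPM in T-ALL and normal bone marrow (1.58-fold, 1.14 to 2.20). Its bone marrow difference, 0.59 on the log2 scale, was the highest of all members there. Eif6, which keeps free large ribosomal subunits from joining small ones, had 107 and 75.6 CPM in T-ALL and normal spleen (1.41-fold, 1.28 to 1.56). Among the enzymes that modify eIF5A and eEF2, 1 of 6 measured passed in spleen: Dohh, which completes hypusine, with 66.3 and 31.3 CPM in T-ALL and normal spleen (2.12-fold, 1.83 to 2.45).

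Elongation factors were the most abundant genes of the set. Eef1a1, which has many pseudogenes that could take or give reads, reached 6428 and 4741 RPKM in T-ALL and normal spleen and 4688 and 4532 RPKM in T-ALL and normal bone marrow, and its spleen ratio was 1.34-fold (1.33 to 1.35). Eef2 (Gene ID 13629), the translocation factor, had 7469 CPM in T-ALL spleen, 3816 CPM in normal spleen, 3779 CPM in bone marrow of T-ALL mice and 3725 CPM in normal bone marrow. The last 3 libraries lay close together and T-ALL spleen stood apart, at 1.96-fold (1.93 to 1.98) of normal spleen. Eef2k, the kinase that phosphorylates and switches off eEF2, ran the other way in spleen, at 48.9 and 79.8 CPM in T-ALL and normal spleen, 1.63-fold lower (1.45 to 1.84) in T-ALL. In bone marrow it was also below normal, at 117 and 171 CPM in T-ALL and normal macrophages, 1.46-fold lower (1.35 to 1.57) in T-ALL. The RPKM of Eef2 was 311 times that of its kinase in T-ALL spleen, 97.4 times in normal spleen, 65.7 times in T-ALL bone marrow and 44.4 times in normal bone marrow. Eef1e1, a component of the multisynthetase complex despite its name, was the single elongation-named gene past 2-fold in T-ALL spleen, with 40.1 and 18.5 CPM in T-ALL and normal spleen (2.17-fold, 1.802 to 2.62) and 18.7 and 24.2 CPM in T-ALL and normal bone marrow.

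The cytosolic synthetases held 10 of the 23, the most of any role. All 20 were above 0 in T-ALL spleen, with a median log2 difference of 0.96, and 19 of 20 were below 0 in T-ALL bone marrow, with a median of −0.34. Their share of all reads was 0.353% in T-ALL spleen, 0.190% in normal spleen, 0.228% in T-ALL bone marrow and 0.289% in normal bone marrow. Mars (Gene ID 216443), which charges methionine, the first residue of every chain, had 177 and 70.7 CPM in T-ALL and normal spleen (2.51-fold, 2.29 to 2.75) and 91.3 and 112 CPM in T-ALL and normal bone marrow. Gars, for glycine, had 213 and 85.7 CPM in T-ALL and normal spleen (2.49-fold, 2.29 to 2.71) and 135 and 158 CPM in T-ALL and normal bone marrow; a single Gars gene serves cytosol and mitochondria. In both, the T-ALL spleen library was the highest of the 4 and normal spleen the lowest, though T-ALL spleen above normal spleen is built in by the 2-fold rule.

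Kars, for lysine, which like Gars serves both compartments, was at 234 and 102 CPM in T-ALL and normal spleen (2.28-fold, 2.11 to 2.47) and at 143 and 182 CPM in T-ALL and normal bone marrow. Eprs, the fused enzyme for glutamate and proline, was at 291 and 128 CPM in T-ALL and normal spleen (2.28-fold, 2.13 to 2.44) and at 188 and 253 CPM in T-ALL and normal bone marrow. Rars, for arginine, was at 125 and 55.0 CPM in T-ALL and normal spleen (2.28-fold, 2.05 to 2.54) and at 77.2 and 94.96 CPM in T-ALL and normal bone marrow. These 3 share the pattern of Mars and Gars. Dars, for aspartate, broke it in one respect: at 198 and 88.3 CPM in T-ALL and normal spleen (2.24-fold, 2.06 to 2.44) and 138 and 198 CPM in T-ALL and normal bone marrow, its level in normal bone marrow matched that in T-ALL spleen. The remaining 4, Tars (2.19-fold, 1.97 to 2.45), Yars (2.07-fold, 1.82 to 2.35), Cars (2.05-fold, 1.75 to 2.41) and Hars (2.02-fold, 1.81 to 2.25), for threonine, tyrosine, cysteine and histidine, had their spleen ratios nearer to 2. Yars also had the lowest bone marrow difference of the synthetases of the cytosol, at 47.6 and 73.9 CPM in T-ALL and normal macrophages, 1.55-fold lower (1.38 to 1.75) in T-ALL. Sars, for serine, differed least in spleen, with 154 and 109 CPM in T-ALL and normal macrophages (1.41-fold, 1.30 to 1.53), and was the one enzyme above 0 in bone marrow (1.04-fold, 0.951 to 1.14). Vars, for valine, had the highest level per length of the role, 141 and 91.6 RPKM in T-ALL and normal spleen and 88.6 and 113 RPKM in T-ALL and normal bone marrow.

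**Figure D4:**
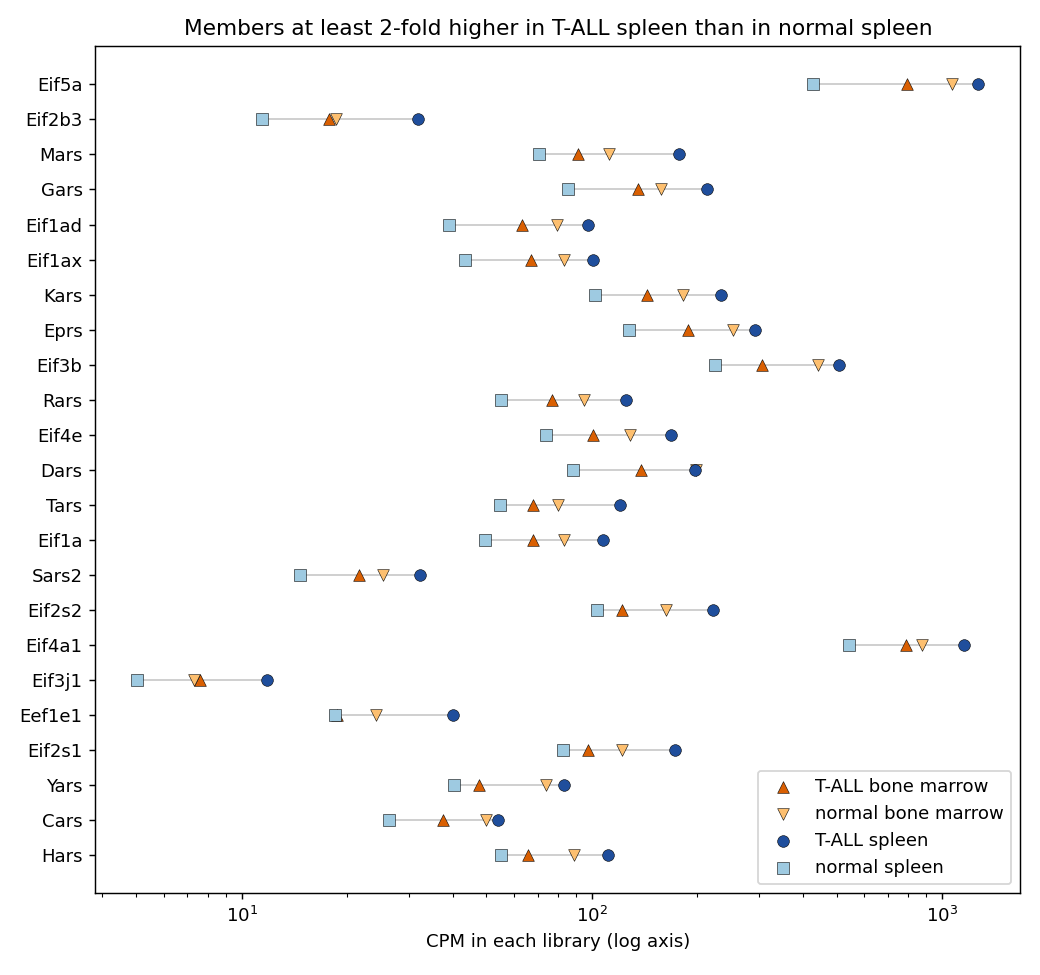
CPM of the 23 members that were 2-fold higher in T-ALL spleen, in each of the 4 libraries, on a log axis. All 23 are lowest in normal spleen and all but Dars are highest in T-ALL spleen, and both bone marrow libraries lie between the spleen libraries except for normal bone marrow in Dars. The 23 were picked by their spleen difference, so T-ALL spleen lies above normal spleen by selection. Without that selection, 70 of the 90 members measured in both organs were highest in T-ALL spleen and 61 lowest in normal spleen.

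Mitochondrial synthetases, which charge the transfer RNAs of the mitochondrial genome, had smaller differences in spleen. Of 16 measured, Sars2 for serine was 2-fold higher in T-ALL spleen, with 32.4 and 14.7 CPM in T-ALL and normal spleen (2.21-fold, 1.79 to 2.73) and 21.7 and 25.3 CPM in T-ALL and normal bone marrow. The median log2 difference was 0.39 in spleen, with 11 above and 5 below 0, and −0.26 in bone marrow. Mars2 had the lowest spleen value, 13.0 and 15.9 CPM in T-ALL and normal spleen, a ratio of 0.818-fold (0.636 to 1.05) whose interval includes 1. In Mars2 and Mars, enzymes for the same amino acid, T-ALL and normal spleen thus differed to unlike extents. Set side by side for each amino acid, with Fars2 paired both with Farsa and with Farsb, the subunits of the cytosolic phenylalanine enzyme, 15 of 17 pairs of 16 mitochondrial enzymes had the larger spleen difference in the cytosolic enzyme, with a median gap of 0.54 on the log2 scale and a range of −0.60 for Sars to 1.58 for Mars. The exceptions were Sars with Sars2 and Lars with Lars2. In bone marrow 6 of 17 pairs had the larger value in the cytosolic enzyme, with a median gap of −0.08.

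**Figure D5:**
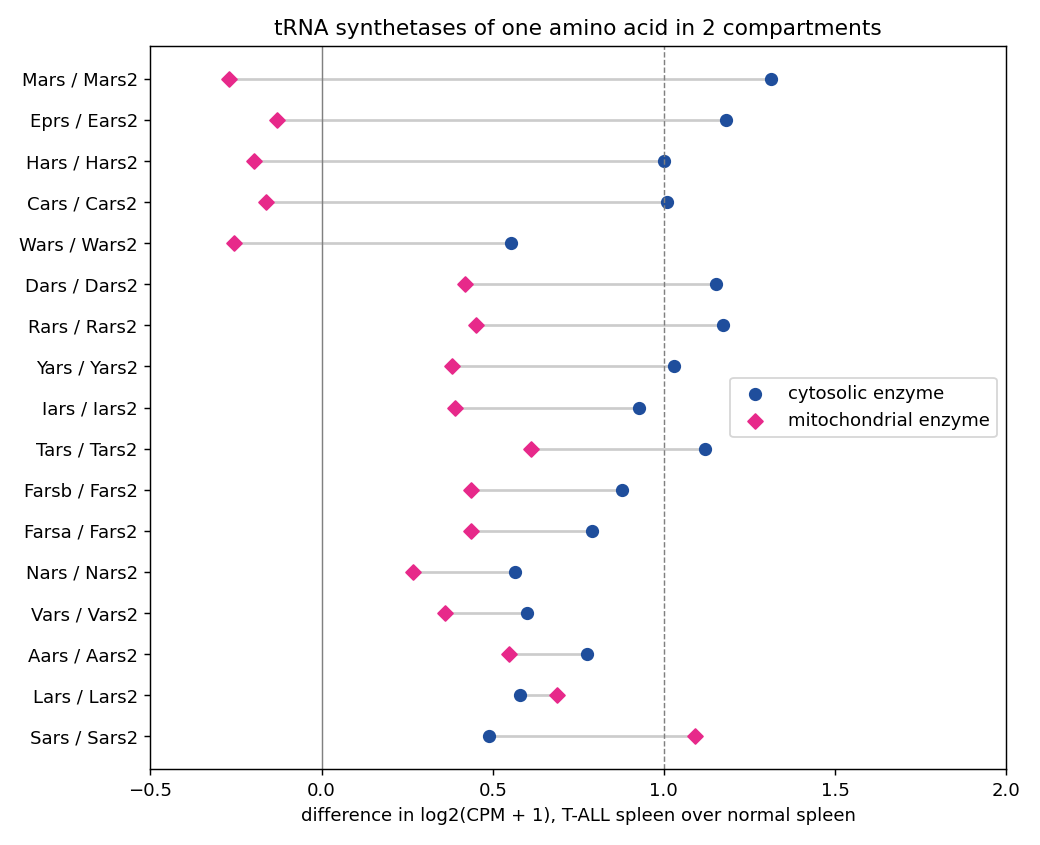
Cytosolic and mitochondrial synthetases for the same amino acid, joined by a line, by their difference in log2(CPM + 1) between T-ALL and normal spleen macrophages. Fars2 appears in a pair with Farsa and again with Farsb. The cytosolic point lies to the right in 15 of 17 pairs, and the widest gap, 1.58, is between Mars and Mars2.

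A further grouping, by membership of the multisynthetase complex, was made after these values were seen. The 8 genes of cytosolic enzymes known to belong to that complex (Dars, Eprs, Iars, Kars, Lars, Mars, Qars and Rars) gave 5 of 8 past 2-fold in T-ALL spleen and a median log2 difference of 1.16, and the other 12 gave 5 of 12 and 0.83. The ranges overlapped, at 0.58 to 1.31 in the complex and 0.49 to 1.30 outside it. In a list of the complex's scaffold proteins and related genes, 2 of 7 measured were 2-fold higher. Of these the scaffold protein Aimp2 was at 45.7 and 21.0 CPM in T-ALL and normal spleen (2.17-fold, 1.83 to 2.59). Eefsec, which delivers selenocysteine and is neither a scaffold protein nor a charging enzyme, was at 77.5 and 30.4 CPM (2.55-fold, 2.21 to 2.94).

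Promoter sequences are shown for Eif5a, Eif4a1 and Gars, which were 2-fold higher in T-ALL spleen, and for Eef2, Eef2k and Iars, which were not. RefSeq promoter windows (GRCm38.p6, 250 bases before a transcription start to 50 after it) were matched for 71 of the 93 members by Gene ID or symbol. They were searched for the E-box CACGTG, a palindrome read by Myc with Max and by other basic helix-loop-helix factors, and for TGATGNAAT on both strands, the CARE element read by ATF4 with C/EBP proteins. In these stretches capitals mark the motif, letters run 5′ to 3′ along the gene's strand, and no base lies in an exon of the gene itself by the GENCODE M21 annotation of GRCm38.
Eif5a, E-box 74 bases before a start, chr11:69921430-69921485, minus strand: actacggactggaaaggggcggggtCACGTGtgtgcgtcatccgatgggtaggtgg
Eif4a1, E-box 189 bases before the start, chr11:69672582-69672637, minus strand: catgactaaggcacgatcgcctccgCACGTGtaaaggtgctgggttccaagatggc
Eef2, E-box 43 bases before the start, chr10:81176563-81176618, plus strand: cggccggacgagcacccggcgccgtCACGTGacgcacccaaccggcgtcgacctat
Eef2k, E-box 31 bases before the start, chr7:120842775-120842830, plus strand: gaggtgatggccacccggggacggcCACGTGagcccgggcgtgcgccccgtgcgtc
Iars, E-box 69 bases before the start, chr13:49682036-49682091, plus strand: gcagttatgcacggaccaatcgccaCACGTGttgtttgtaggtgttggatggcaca
Gars, CARE 31 bases before the start, read on the opposite strand, chr6:55037945-55038000, plus strand: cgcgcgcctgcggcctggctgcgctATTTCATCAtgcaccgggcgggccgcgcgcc

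The E-box was present in the windows of 17 of the 71 members (23.9%), against 8.09% of all genes with a window and 12.3% of genes with 10 CPM or more in any library. Within the set it was held by 4 of 18 members that were 2-fold higher in T-ALL spleen (22.2%) and by 13 of the 53 others (24.5%). In Ears2, Eif3a and Tars the only E-box lies after the start. In Aars, Eif1b and Eif4e the stretches around the E-box lie wholly in exons of the gene. Eef2 and its kinase Eef2k both hold it, and the part of the E-box in the results was not tested. CARE was found for 3 of 71 members (4.23%), all of them cytosolic synthetases (Aars, Gars and Iars, 3 of 13 with a window), against 1.08% of all genes and 0.479% of genes with 10 CPM or more. The Iars match lies after the start, and the stretch around the Aars match lies wholly in an exon of Aars. Gars alone holds CARE before the start and outside its exons. Gars passed 2-fold in T-ALL spleen, and the spleen ratios of Iars and Aars were 1.91-fold (1.75 to 2.09) and 1.72-fold (1.58 to 1.86). A match is a run of letters and not a binding site, and a window without one says nothing of the factor.

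Genes around this machinery were read from lists in the same way. Among 24 ribosome biogenesis genes 17 were 2-fold higher in T-ALL spleen and 0 lower, with a median log2 difference of 1.25, and in bone marrow all 24 were below 0 with 0 past 2-fold and a median of −0.41. Ncl, a nucleolar protein of this list, had 1929.9 and 625 CPM in T-ALL and normal spleen (3.09-fold, 2.996 to 3.18), and the nucleolar methyltransferase Fbl had 278 and 115 CPM (2.41-fold, 2.25 to 2.60). The 37 cytosolic ribosomal proteins were above 0 in T-ALL spleen without exception but gave 0 past 2-fold and a median of 0.35, with −0.13 in bone marrow. By these medians the translation factors and synthetases, at 0.68, lay between ribosomal proteins and ribosome assembly genes. Of 7 termination and recycling genes 4 were higher in spleen, among them Etf1, the release factor that reads stop codons, at 331 and 148 CPM in T-ALL and normal spleen (2.23-fold, 2.09 to 2.38), and Abce1, the recycling ATPase, at 294 and 140.4 CPM (2.10-fold, 1.96 to 2.24). Of 6 poly(A)-binding proteins and regulators Pabpc4 alone passed, at 100.5 and 32.1 CPM (3.13-fold, 2.74 to 3.58), and of 9 mitochondrial translation factors 0 passed, with a median of 0.53.

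Of the kinases and signalling genes upstream of these factors none passed 2-fold in T-ALL spleen. The 4 eIF2 alpha kinases were all below 0 in T-ALL spleen, with a median of −0.50 and 0 past 2-fold, and the 12 genes of mTORC1 and MNK signalling had a median of 0.02 with 0 past 2-fold. The signalling list went both ways, with 7 above 0 and a span from −0.57 for the eIF4E kinase Mknk1 to 0.86 for Larp1, which binds the messenger RNAs of ribosomal proteins. The S6 kinase Rps6kb1 had a ratio of 1.49-fold (1.32 to 1.67). In the list of the eIF2 alpha phosphatase and the stress response, 5 of 14 were higher and 1 lower in T-ALL spleen. Over the list, 11 of the 14 were above 0 in spleen, with a median of 0.63. The 5 were mostly enzymes of serine and glycine synthesis: Psat1 (6.45-fold, 5.62 to 7.43), Shmt2 (5.40-fold, 4.95 to 5.89), Phgdh (4.41-fold, 4.01 to 4.87) and Psph (2.20-fold, 1.74 to 2.79). The amino acid transporter subunit Slc7a5 (3.94-fold, 3.55 to 4.38) was the other. The part of the stress response in the results was not tested. The lower one was Sesn2, a leucine sensor, at 20.2 and 57.4 CPM in T-ALL and normal spleen. Atf4 itself had 300.3 and 229 CPM in T-ALL and normal spleen and did not pass. In bone marrow 3 of 15 were higher in T-ALL, namely Ppp1r15a, the stress-induced phosphatase subunit, with Sesn2 and Cebpb. In the Myc family 1 of 8 was higher in T-ALL spleen (Mxd3) and 2 lower (Mycl1 and Mxd1). Myc had 155 and 105 CPM in T-ALL and normal spleen and 149 and 257 CPM in T-ALL and normal bone marrow. Normal bone marrow was thus highest for Myc and normal spleen lowest. By summed level the members were also lowest in normal spleen but highest in T-ALL spleen. The part of Myc in the results was not tested.

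Spleen and bone marrow macrophages were also compared within each state, using the libraries above a second time. In T-ALL, 2 of 91 members were 2-fold higher in spleen than in bone marrow and 2 lower, where the rule took 5.44% of 9852 genes as higher and 11.0% as lower; the median was 0.51 over the members and 0.01 over all genes. The higher pair were Eef1e1 (2.15-fold, 1.79 to 2.58) and Eif2s3x (2.09-fold, 1.98 to 2.21), followed by Eef2 at 0.98 on the log2 scale. With the Y-linked copy added, the spleen to bone marrow ratio of eIF2 gamma in T-ALL was 1.68-fold, under the limit, and these libraries differ in Xist and Eif2s3y as given above. The lower pair were Eif4e3 (3.36-fold lower, 2.79 to 4.06) and Eef2k (2.39-fold lower, 2.14 to 2.68), followed by Eif4ebp1 at −0.93. In the normal state, 0 of 90 were higher and 4 lower in spleen, where the rule took 16.1% of 10072 genes as higher and 14.0% as lower; the median was −0.45 over the members and −0.04 over all genes. The 4 were Eif5a (2.50-fold lower, 2.41 to 2.59), Dars (2.25-fold lower, 2.07 to 2.44), Eef2k (2.14-fold lower, 1.96 to 2.34) and Lars2 (2.08-fold lower, 1.75 to 2.48), and the highest values belonged to Eif4a2, Eif5a2 and Eif4ebp3, at 0.94, 0.67 and 0.54 on the log2 scale. Eef2k was thus 2-fold lower in spleen than in bone marrow in both states. The 11 cell cycle genes were all 2-fold lower in normal spleen than in normal bone marrow, and their part in this comparison was not tested.

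Some counts rest on shared sequence. By the GENCODE M21 annotation of GRCm38, 29 of the 93 members have an exon that overlaps another gene, 25 of them on the opposite strand, and the sources used here name neither the authors' build nor a strand setting. Of the 23 genes higher in T-ALL spleen, 5 are among them: Eif1ad, Eif3j1, Hars, Mars and Yars. For Mars the partner is Ddit3, a stress gene, and for Hars it is Hars2, which is itself a member and had 30.0 and 34.6 CPM in T-ALL and normal spleen.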

How the data were processed

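Each of the 4 libraries has a deposited table with, per the file headers, the counts of uniquely mapped reads per gene, the gene's length, an RPKM, a Gene ID and a symbol. The deposited counts are whole numbers, and genes with no line were set to 0 reads. The deposited RPKM (reads per kilobase of the listed length, relative to the library total) was recomputed to within 9.15e-06%. Total RNA was extracted with a Qiagen kit and made into Illumina libraries, per the labels' protocols. The sources used here name no aligner, counting rule or build.

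Counts were turned into CPM after TMM scaling in edgeR 4.0.16 under R 4.3.3. The factors were 1.01 for T-ALL spleen, 0.996 for normal spleen, 0.991 for T-ALL bone marrow and 1.00 for normal bone marrow. The rest was done in Python 3.11.15 (numpy 2.4.6, pandas 2.3.3, matplotlib 3.10.9, scipy 1.17.1). Groups of a single library allow no test: a gene counts as higher or lower at 2-fold or more on log2(CPM + 1) with 10 CPM in the higher library, and "measured" means 10 CPM in the higher library. The pseudocount of 1 CPM understates changes of low genes. Ratios are of CPM without it, with exact binomial 95% intervals. Intervals cover counting error only, and PCR copies are not independent molecules. The 2-fold rule alone was tried on simulated counts with planted changes, under total-count scaling and with counting error only. The TMM scaling, the intervals and the motif search were not part of that trial.

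The members and the lists were chosen with earlier results of these data known. Members were named in full where they passed the size rule for T-ALL or were extremes of their role or of an organ comparison. Alternatives tried were a 1.5-fold threshold, the deposited RPKM (5 RPKM or more) in place of CPM, a minimum of 1 or 50 CPM, a pseudocount of 0.1 or 5 CPM, and scaling by total count or by median of ratios.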

Additional observations from a re-analysis of the deposited data

Results flagged for a closer look

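For the members together and for 8 of the 9 roles, the median log2 difference between T-ALL and normal macrophages had opposite signs in spleen and in bone marrow. The spleen minus bone marrow gap between the medians was 0.94 over all members, with 0.68 in spleen and −0.26 in bone marrow. The gap was 1.30 for the cytosolic synthetases, 1.14 for eIF2B, 1.09 for eIF5A and eIF6, and 1.04 for the start-site and ternary-complex factors. It was 0.95 for eIF3, 0.94 for the elongation factors, 0.82 for the eIF4 group and 0.64 for the mitochondrial synthetases. The eIF4E-binding proteins, with medians of 0.11 in spleen and 0.06 in bone marrow, were the role without a change of sign. With 1 library per group these differences were not tested.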

How the results depend on the processing

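Of 92 values recomputed under the alternatives, 82 were taken as unchanged and 10 moved. A count was unchanged within 1.5 times, and a median within a limit of 0.1275 to 0.1355, by comparison. That limit is the median half-width of the counting intervals of single members' log2 ratios. It is not the counting error of a median over the members. No value changed sign. The count of 23 members higher in T-ALL spleen ranged from 17 with a pseudocount of 5 CPM to 25 with median-of-ratios scaling, apart from the 1.5-fold threshold. The pseudocount of 5 CPM lost Yars, Hars, Cars, Eef1e1, Sars2 and Eif3j1, and median-of-ratios scaling added Eef2 and Eif3i. The 1.5-fold threshold gave 52 members higher and 2 lower in T-ALL spleen, 1 higher and 3 lower in T-ALL bone marrow, 34 higher in spleen against bone marrow in T-ALL, and 2 higher and 30 lower in that comparison in the normal state. The 2 members higher in spleen against bone marrow in T-ALL became 4 with median-of-ratios scaling, 1 with a pseudocount of 5 CPM and 1 with a minimum of 50 CPM. No paired analysis was possible because each group has 1 library. For the same reason no library could be left out, and the spread between animals is unknown. At these depths a library without a read of a gene allows up to 3 reads, 0.304 to 0.336 CPM, which limits the set only for Eef1a2.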
